A study of Saccharomyces cerevisiae with 4 samples.

Results

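The mRNAs of the polyamine pathway were followed in G2/M-arrested budding yeast after transcription inhibition by thiolutin. They comprise 6 genes of the 7071 in the tables, namely OAZ1 (YPL052W), SPE1 (YKL184W), SPE2 (YOL052C), SPE3 (YPR069C), SPE4 (YLR146C) and MEU1 (YLR017W). The 6 genes were chosen by their role in polyamine synthesis and its control, and with the values of thiolutin against DMSO already in view, in which OAZ1 stood out among the lowest. Their own changes between the 2 conditions are therefore given as a description, without a test. Total RNA was sequenced from 4 samples of the WT strain CB67, of W303 origin, all grown in glucose medium and arrested with benomyl (80 μg/ml, 90 min), a drug that depolymerizes microtubules. Of these, 2 received thiolutin (20 μg/ml, 30 min), an inhibitor of yeast RNA polymerases that is also reported to induce a stress response, and 2 received the solvent DMSO. Within a condition the replicates are lettered a and b, and S. pombe cells were added to every sample before RNA extraction. The comparison asks how the mRNAs of one small pathway stood after 30 min of treatment, so it measures mRNA level and not transcription. In bulk samples, fewer cells and less RNA per cell cannot be told apart.

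Polyamines are small positively charged molecules that bind nucleic acids and are needed for growth. Ornithine decarboxylase, encoded by SPE1, makes putrescine, and S-adenosylmethionine decarboxylase, encoded by SPE2, supplies the aminopropyl donor. Spermidine synthase (SPE3) and spermine synthase (SPE4) add the aminopropyl groups one after the other, and methylthioadenosine phosphorylase (MEU1) takes up the by-product and starts its salvage to methionine. OAZ1 encodes the antizyme, which binds Spe1 and sends it to the proteasome without ubiquitin. Antizyme is made only when the ribosome shifts frame on its mRNA, and high polyamine levels favour the shift, so that the pathway restrains its own first enzyme.

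The shift site of OAZ1 is shown because it sets this gene apart from the other 5 and because the counting model is built around it. The sequence is from the R64 genome, the RefSeq counterpart of the sacCer3 build listed in the submitters' processing notes, and reads 5′ to 3′ on the plus strand at chrXVI:458976-459036. The capitals mark the last codon before the shift, the base that is skipped (position 459006 of chromosome XVI) and the codon read after it.
OAZ1 shift site: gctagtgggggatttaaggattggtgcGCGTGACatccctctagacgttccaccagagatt
Read without a shift, the frame ends at a TGA stop after 69 codons, and with the shift it runs to 292 codons. The codons before the shift are thus 23.6% of the whole. The OAZ1 model in the deposited tables is 879 bases long, equal to the annotated coding segments from 458799 to 459005 and from 459007 to 459678 joined without the skipped base. Reads counted for OAZ1 measure its mRNA, and they do not show whether ribosomes shifted.

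SPE3 lies on the minus strand of chromosome XVI from 684556 to 685437, so that it shares a chromosome with OAZ1. SPE4 (432823 to 433725, minus strand) and MEU1 (177608 to 178621, plus strand) are on chromosome XII. SPE1 lies on the plus strand of chromosome XI from 96757 to 98157, and SPE2 on the minus strand of chromosome XV from 232446 to 233636. None of the 6 overlaps another annotated gene, and each of the 5 enzyme genes is 1 uninterrupted coding exon in that annotation. OAZ1 has the lowest GC content of the 6, with 33.2%, against 38.9% (SPE4) to 43.3% (SPE2) in the enzyme genes. In the 250 bases before and 50 bases after the start codon, none of the 6 held the letters TGACTC (Gcn4), AGGGG (Msn2/Msn4), GAANNTTC (Hsf1), GGTGGCAAA (Rpn4) or CACGTG (Cbf1) on either strand. These motifs occur in 8.0%, 21.6%, 11.8%, 1.2% and 2.9% of 6001 such windows of protein-coding genes, in the order given. SPE3 and SPE4 are related enzymes, but their longest identical run is 15 bases, well under the 64.5 bases by which effective lengths fall below gene lengths. Of the 24 expected counts of the 6 genes, 23 were whole numbers to within 0.005, which means that almost no read was divided between genes.

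Most of the reads came from rRNA, and the libraries differed in total depth. Expected counts summed to 38613462 and 11598766 in thiolutin replicates a and b and to 27262771 and 48045781 in DMSO replicates a and b. Protein-coding genes took 6.56% and 8.12% of them in the thiolutin libraries and 11.8% and 11.2% in the DMSO libraries. The chi-square between the 2 replicates of a condition was 6.78 (thiolutin) and 4.52 (DMSO) times its degrees of freedom, above counting noise, so neither pair was treated as 1 library deposited again. Transcripts of the mitotic genes CLB1, CLB2, CDC20 and SWI5 together had 0.68 and 1.15 TPM in the thiolutin libraries and 3.44 and 3.15 TPM in the DMSO libraries. Those of the G1 and S phase cyclins CLN1, CLN2, CLB5 and CLB6 together had 0.18 and 0.16 TPM in the thiolutin libraries and 0.62 and 0.52 TPM in the DMSO libraries. The mitotic sum was thus the higher one in all 4 libraries, whose labels give G2/M arrest, and both sums were lower with thiolutin. Single genes did not all follow the sums. SWI5 was at 0.13 and 0.35 TPM with thiolutin and at 0.21 and 0.28 TPM with DMSO. In DMSO replicate a CLB5 (0.53 TPM) was above CDC20 (0.51 TPM) and SWI5. In TPM, 71.6% of all genes tested had both thiolutin libraries below both DMSO libraries. The part of these differences in the results was not tested.

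OAZ1 mRNA was 8.46 times lower with thiolutin than with DMSO relative to the typical gene. The gene had 46 and 9 expected counts in thiolutin replicates a and b, against 569 and 793 in DMSO replicates a and b. The exact Poisson 95% intervals of these counts, which cover counting error only, were 33.7 to 61.4 and 4.12 to 17.1 for the thiolutin libraries and 523 to 618 and 739 to 850 for the DMSO libraries. Both thiolutin libraries lay far below both DMSO libraries, although thiolutin replicate b was also the shallowest library. After TMM normalization, which takes most genes as unchanged, and scaling to a common library size, the normalized count was 39.2 ± 17.9 (SD, n = 2) with thiolutin and 370.4 ± 47.1 (SD, n = 2) with DMSO. The log2 fold change from edgeR was -3.08 (SE 0.25). In the order of log2 fold change over the 5527 genes that passed the filter on low counts, OAZ1 was number 24 from the lowest. The 9 reads in thiolutin replicate b limit how precisely the size of the difference is known. Without thiolutin replicate a the log2 fold change was -3.79, and without thiolutin replicate b it was -2.85.

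The mRNA for the target of the antizyme, Spe1, was only slightly lower relative to the typical gene. SPE1 had normalized counts of 159 and 197 in thiolutin replicates a and b, against 240 and 217 in DMSO replicates a and b. The ranges did not overlap, but the gap between them was smaller than the distance between the 2 thiolutin libraries. The log2 fold change of SPE1 was -0.39 (SE 0.18), and it was -0.21 without thiolutin replicate a. The mRNA of the first enzyme of the pathway thus stayed at 0.763 of its DMSO value relative to the typical gene.

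SPE2 had the largest positive difference of the 6 genes. Its normalized counts were 134 and 182 in thiolutin replicates a and b, against 83.7 and 78.2 in DMSO replicates a and b. Its log2 fold change was 0.92 (SE 0.21), or 1.90 times the DMSO value. Its raw expected counts were 119 and 62 with thiolutin and 118 and 184 with DMSO. Both thiolutin libraries lay above both DMSO libraries after normalization.

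The 2 aminopropyl transferase genes differed from each other. SPE3, for spermidine synthase, had normalized counts of 2200 and 1815 in thiolutin replicates a and b, against 1550 and 1438 in DMSO replicates a and b, a log2 fold change of 0.43 (SE 0.16). SPE4, for spermine synthase, had 219 and 277 in the thiolutin libraries, against 263 and 238 in the DMSO libraries, a log2 fold change of -0.05 (SE 0.17). Its groups overlapped, with the 2 thiolutin libraries on either side of the DMSO libraries. For SPE3 both thiolutin libraries lay above both DMSO libraries.

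Of the 6 genes, MEU1 had the closest replicates in normalized counts. Its normalized counts were 538 and 533 in thiolutin replicates a and b, against 327 and 327 in DMSO replicates a and b. Its 181 expected counts in thiolutin replicate b had an exact Poisson interval of 156 to 209, so counting error alone allows a larger difference. In TPM it was at 1.71 and 2.63 in the thiolutin libraries and at 2.52 and 2.30 in the DMSO libraries. Whether the closeness is a trait of the gene was not tested. The log2 fold change was 0.71 (SE 0.14), and it ranged from 0.70 to 0.71 when each library was left out in turn. Of the 6 genes, 3 (SPE2, SPE3, MEU1) had both thiolutin libraries above both DMSO libraries, as had 33.2% of all genes tested, and 2 (OAZ1, SPE1) had both below, as had 36.7% of all genes tested. The median log2 fold change was 0.19 over the 6 genes and -0.02 over all genes tested.

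**Figure D1:**
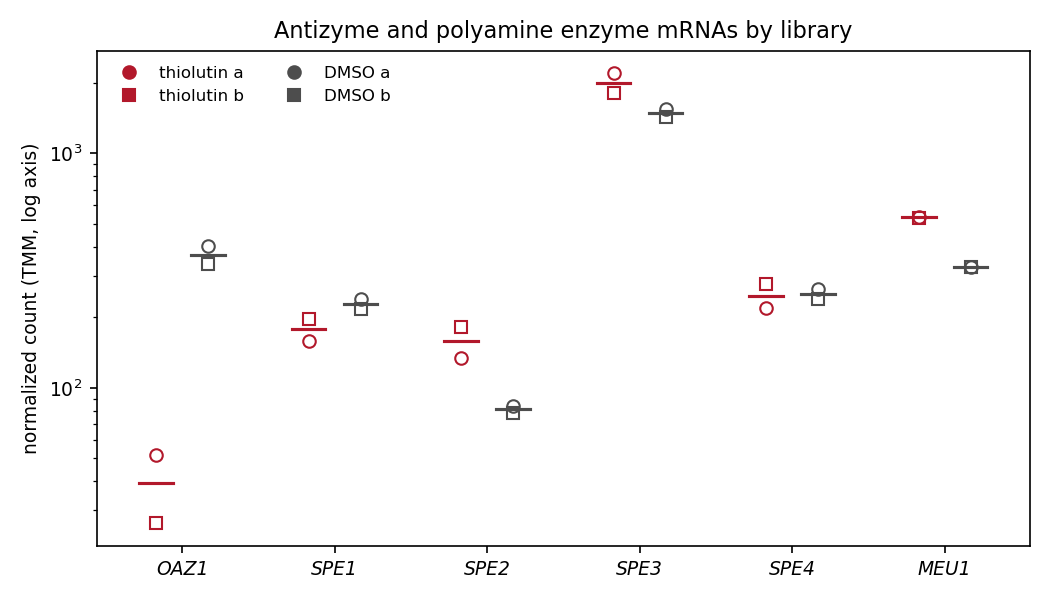
Normalized counts (TMM, log axis) of OAZ1 and the 5 enzyme genes, with thiolutin libraries in red and DMSO libraries in grey. Each point is 1 library (circle for replicate a, square for replicate b) and each bar is the mean of 2. OAZ1 averages 39.2 with thiolutin and 370.4 with DMSO, while the other genes differ by less than 2 times between conditions.

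These values are relative to the typical gene, and the sign for SPE2, SPE3 and MEU1 depended on that choice. When counts were scaled to library totals, to the RDN58 genes (5.8S rRNA) or to the RDN25 and RDN18 genes (25S and 18S rRNA), all genes tested had a median log2 fold change of -0.99, -0.95 and -1.24. OAZ1 was lower under each of these, with log2 fold changes of -4.14, -4.18 and -4.31. SPE1 was at -1.34, -1.26 and -1.61 in the same order. SPE2 was near the DMSO level, at -0.019, 0.068 and -0.29, and MEU1 was somewhat below it, at -0.25, -0.19 and -0.51. SPE3 turned negative as well, at -0.54, -0.49 and -0.79. SPE4 was at -0.99, -0.90 and -1.26, close to the median of all genes tested in each case. Because a scaling shifts every gene of 1 library alike, the order of the 6 genes, with SPE2 highest and OAZ1 lowest, is nearly fixed by construction. The 25S and 18S rRNAs were depleted before library preparation, so their counts also depend on how much remained. The number of S. pombe reads was not used here.

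**Figure D2:**
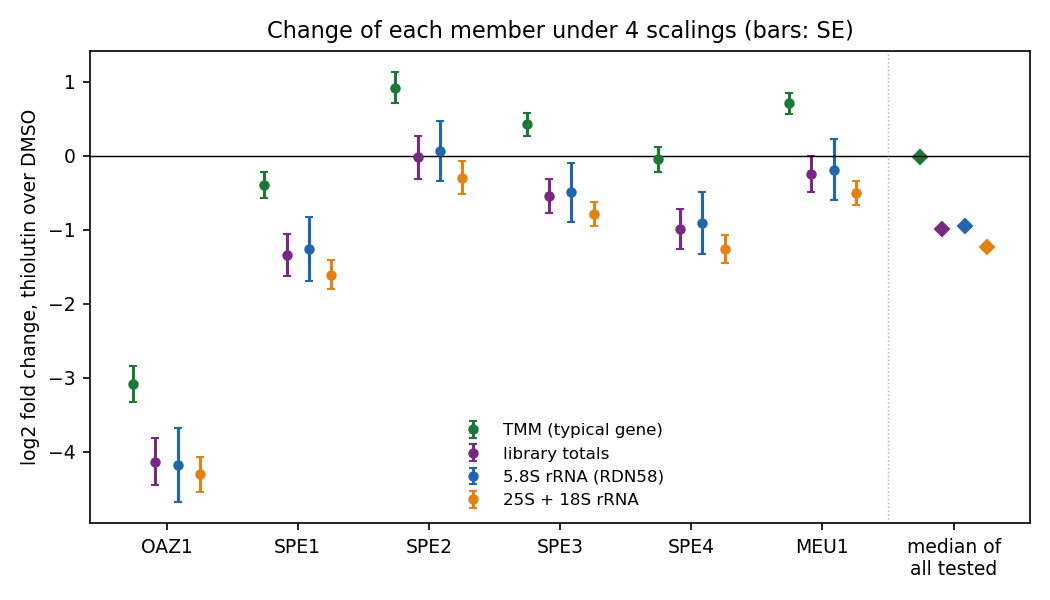
Log2 fold change of thiolutin over DMSO for each gene under 4 scalings, with standard errors, and the median of all genes tested (diamonds). All 4 values of OAZ1 lie between -4.31 and -3.08, below the median of its scaling, while SPE2, SPE3 and MEU1 lie above it in each case.

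The deposited TPM values are adjusted for gene length and allow levels to be compared between genes. With thiolutin, SPE3 had 9.25 ± 1.63 TPM (SD, n = 2), followed by MEU1 with 2.17 ± 0.651 TPM, SPE4 with 1.17 ± 0.530 TPM, SPE2 with 0.56 ± 0.283 TPM, SPE1 with 0.525 ± 0.233 TPM and OAZ1 with 0.17 ± 0.0283 TPM (SD, n = 2 each). Of the neighbours in this order, only SPE2 and SPE1 overlapped. With DMSO, SPE3 was again first with 12.8 ± 1.52 TPM, OAZ1 had 3.19 ± 0.615 TPM, MEU1 2.41 ± 0.156 TPM, SPE4 2.10 ± 0.290 TPM, SPE1 1.20 ± 0.163 TPM and SPE2 0.50 ± 0.0566 TPM (SD, n = 2 each). Here MEU1 and SPE4 overlapped. OAZ1 was thus last of the 6 with thiolutin and second with DMSO. Among protein-coding genes its mean level stood at percentile 41.8 with thiolutin and 85.5 with DMSO, whereas SPE3 stood at 95.8 with thiolutin and 95.7 with DMSO. The RDN58 genes took 81% to 82.7% of all TPM, which makes the TPM of other genes small numbers. On the TPM scale 4 of the 6 genes (OAZ1, SPE1, SPE3, SPE4) had both thiolutin libraries below both DMSO libraries, as had 71.6% of all genes tested, and SPE2 and MEU1 overlapped. The median log2 change in TPM (pseudocount 0.1) over 5807 protein-coding genes was -0.61, so that most genes were lower on this scale.

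Ratios between genes within 1 library need no scaling between libraries. Per base of effective length, there were 0.535 and 0.220 OAZ1 reads for each SPE1 read in thiolutin replicates a and b, against 2.76 and 2.55 in DMSO replicates a and b. Antizyme mRNA was thus the less abundant of the pair with thiolutin and the more abundant with DMSO, with a mean ratio of 0.378 ± 0.223 (SD, n = 2) with thiolutin and 2.65 ± 0.154 (SD, n = 2) with DMSO. The log2 difference of this ratio was -2.95. Against MEU1, OAZ1 was at 0.112 and 0.0580 in the thiolutin libraries and at 1.44 and 1.20 in the DMSO libraries.

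The balance of the 2 decarboxylase mRNAs also differed. SPE2 per SPE1 was 1.00 and 1.10 in thiolutin replicates a and b, against 0.414 and 0.427 in DMSO replicates a and b. The 2 mRNAs were thus near parity with thiolutin, while SPE1 was the more abundant with DMSO. SPE4 per SPE1 was 2.19 and 2.24 in the thiolutin libraries and 1.75 and 1.75 in the DMSO libraries, a small difference with a narrow spread. SPE3 per SPE4 was 10.3 and 6.73 in the thiolutin libraries and 6.04 and 6.18 in the DMSO libraries, so that the 2 thiolutin replicates were further apart than thiolutin replicate b was from DMSO. Of the summed reads per base of the 6 genes, OAZ1 held 1.67% and 0.942% with thiolutin and 15.0% and 13.6% with DMSO. SPE3 held 70.5% and 64.3% with thiolutin and 57.4% and 58.0% with DMSO.

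**Figure D3:**
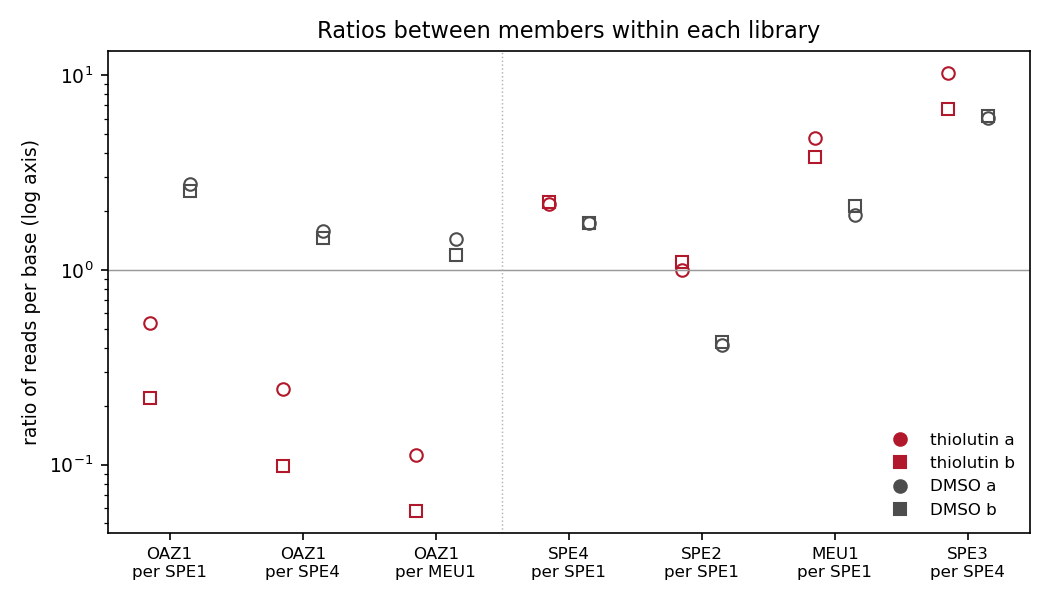
Ratios of reads per base between pairs of genes within each library (log axis), with thiolutin libraries in red and DMSO libraries in grey, and a line at 1. OAZ1 per SPE1 is 0.535 and 0.220 with thiolutin and 2.76 and 2.55 with DMSO, whereas SPE4 per SPE1 moves only between 1.75 and 2.24.

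In the order of log2 fold change, the genes next to OAZ1 on the lower side were BUD8, ECM13 and YEL075C (-3.11, -3.16 and -3.17), and those on the upper side were YIR043C, SEN15 and YGR079W (-3.03, -3.01 and -3.00). All of these had lower normalized counts than OAZ1 with DMSO, at most 93.7 in a library, against 404 and 337 for OAZ1. The 5 genes whose pattern over the 4 libraries was nearest to that of OAZ1, measured as the distance between centred log2 CPM values, were YJU2, tX(XXX)D, GPI19, PDE2 and ATX2, at distances of 0.349 to 0.479. Of these, PDE2 had normalized counts of 124 and 94.2 in the thiolutin libraries, against 1344 and 937 in the DMSO libraries. ATX2 had 48.5 and 29.4 in the thiolutin libraries, against 300.1 and 251 in the DMSO libraries. YJU2 and GPI19 were at 1.13 and 0 in the thiolutin libraries, where their likeness rests on very few reads.

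The genes that supply the pathway, carry its products and use them were taken as a list of 43. Of these, 41 passed the filter on low counts (CAR2 and ANB1 did not). The list was chosen with earlier results of these data known, so its shares of calls are a description. With edgeR's quasi-likelihood test and an adjusted p under 0.05 over all genes tested, 12 of the 41 (29.3%) were higher with thiolutin and 4 (9.76%) were lower. Over all genes tested, 18.5% were higher and 17.6% were lower, or 1023 and 971 genes. When scaled to RDN58 these became 89 and 2678 genes, and 1 and 13 of the listed genes. The median log2 fold change was 0.10 over the list and -0.02 over all genes tested. The calls were sensitive to single libraries, and 5 of the 16 held whichever library was left out (ARG7, BAT1, TPO2, QDR3 and SKY1). Without DMSO replicate a 5 genes were higher and 2 lower, without DMSO replicate b 6 and 2, and without thiolutin replicate a 2 were lower.

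Of 7 genes of ornithine and arginine metabolism tested, 3 were called higher and 1 lower relative to the typical gene. Over all genes tested the shares were 18.5% higher and 17.6% lower. ARG7, which makes ornithine in the mitochondrion, had 571 ± 108 normalized counts with thiolutin and 289 ± 26.2 with DMSO (SD, n = 2 each), a log2 fold change of 0.96 (adjusted p = 0.00146, edgeR). ARG8, which makes the precursor of that step, had 0.80 (adjusted p = 0.00398, edgeR), a call lost without DMSO replicate a. ARG2, which starts the route with the acetylation of glutamate, had -0.71 (adjusted p = 0.0238, edgeR), and its call held only when thiolutin replicate b was the library left out. CAR1, the arginase that releases ornithine from arginine, was at -0.39 (adjusted p = 0.208, edgeR). Relative to the typical gene ARG7 and ARG2 thus had opposite signs, but when counts were scaled to RDN25 and RDN18 both were negative (-0.25 for ARG7 and -1.93 for ARG2), and ARG2 was not called by DESeq2's Wald test (adjusted p = 0.134).

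SAM1 and SAM2, which make S-adenosylmethionine, had log2 fold changes of 0.06 and -0.17, and neither was called (adjusted p = 0.752 and 0.393, edgeR). In methionine salvage, downstream of MEU1, 3 of 8 genes were called higher (18.5% of all genes tested) and the other 5 were not called. BAT1, the mitochondrial branched-chain aminotransferase, had 1153 ± 63.5 normalized counts with thiolutin and 542 ± 60.1 with DMSO (SD, n = 2 each), a log2 fold change of 1.08 (adjusted p = 3.88e-04, edgeR). BAT2, its cytosolic counterpart, had 0.62 (adjusted p = 0.00745, edgeR), and its call was lost without either DMSO library. ADI1, the dioxygenase of the salvage route, had 0.81 (adjusted p = 0.0294, edgeR), and its call held only without thiolutin replicate b. MRI1 and MDE1, which act right after MEU1, were at 0.08 and 0.29 and were not called (adjusted p = 0.714 and 0.137, edgeR).

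Of 11 transporters, 2 were called higher (18.5% of all genes tested), 2 lower (17.6%) and 7 were not called. QDR3, a plasma membrane exporter that acts on polyamines, had 34.3 ± 5.53 normalized counts with thiolutin and 119 ± 14.0 with DMSO (SD, n = 2 each), a log2 fold change of -1.85 (adjusted p = 3.41e-04, edgeR). TPO4, a polyamine exporter, had a log2 fold change of 1.19 (adjusted p = 0.00514, edgeR), a call lost without DMSO replicate b. TPO2, another exporter, had 56.1 ± 0.309 normalized counts with thiolutin and 11.1 ± 1.69 with DMSO (SD, n = 2 each), a log2 fold change of 2.30 (adjusted p = 8.04e-04, edgeR). TPO2 shares an identical run of 365 bases with TPO3, so reads were divided between them, and TPO3 was at -0.23 (adjusted p = 0.433, edgeR). The sum of both was 154 and 144 normalized counts in the thiolutin libraries, against 104 and 138 in the DMSO libraries, a much smaller difference than for TPO2 alone. TPO1, the best known polyamine exporter, was at 0.12 (adjusted p = 0.617, edgeR). SKY1, a kinase that affects polyamine uptake, had 138 ± 5.05 normalized counts with thiolutin and 328 ± 8.45 with DMSO (SD, n = 2 each), a log2 fold change of -1.26 (adjusted p = 2.33e-04, edgeR), while the kinase gene PTK2 was at 0.41 (adjusted p = 0.289, edgeR). When counts were scaled to library totals, to RDN58 or to RDN25 and RDN18, TPO2 was still called higher, and the 4 genes called lower (ARG2, QDR3, GAP1 and SKY1) were still called lower. The other 11 genes called higher were called higher under none of these scalings, and ARG5,6, ARG8, BAT2, PAA1 and DYS1 were called lower when scaled to RDN25 and RDN18.

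Spermidine is also consumed. In hypusine formation, in which spermidine modifies the translation factor eIF5A, 2 of 3 genes were called higher relative to the typical gene. Over all genes tested the share was 18.5%. DYS1, which transfers part of spermidine to eIF5A, had normalized counts of 807 and 712 in the thiolutin libraries, against 402 and 476 in the DMSO libraries, a log2 fold change of 0.79 (adjusted p = 0.00262, edgeR). LIA1, which completes hypusine, had 0.86 (adjusted p = 0.00719, edgeR). The calls of both were lost without DMSO replicate a. HYP2, which encodes eIF5A, was at 0.17 (adjusted p = 0.510, edgeR). Of the genes of oxidation, acetylation and the beta-alanine route, 2 of 6 were called higher, against 18.5% of all genes tested. PAA1, the polyamine acetyltransferase, had 0.71 (adjusted p = 0.00408, edgeR), a call lost without DMSO replicate b. ALD2, an aldehyde dehydrogenase, had 0.88 (adjusted p = 0.0108, edgeR), a call lost without either DMSO library, and it shares a run of 329 bases with ALD3, which was at -0.41 (adjusted p = 0.253, edgeR). Reads were divided between the 2 genes in all 4 libraries, and their sum was 140 and 147 normalized counts in the thiolutin libraries, against 116 and 113 in the DMSO libraries, a smaller difference than for ALD2 alone. FMS1, the polyamine oxidase, was at 0.14 (adjusted p = 0.576, edgeR). SUP35 and SUP45 encode the release factors, which together end translation at stop codons such as the one at the OAZ1 shift site. The 2 genes were at 0.09 and 0.10 and were not called (adjusted p = 0.665 and 0.631, edgeR).

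**Figure D4:**
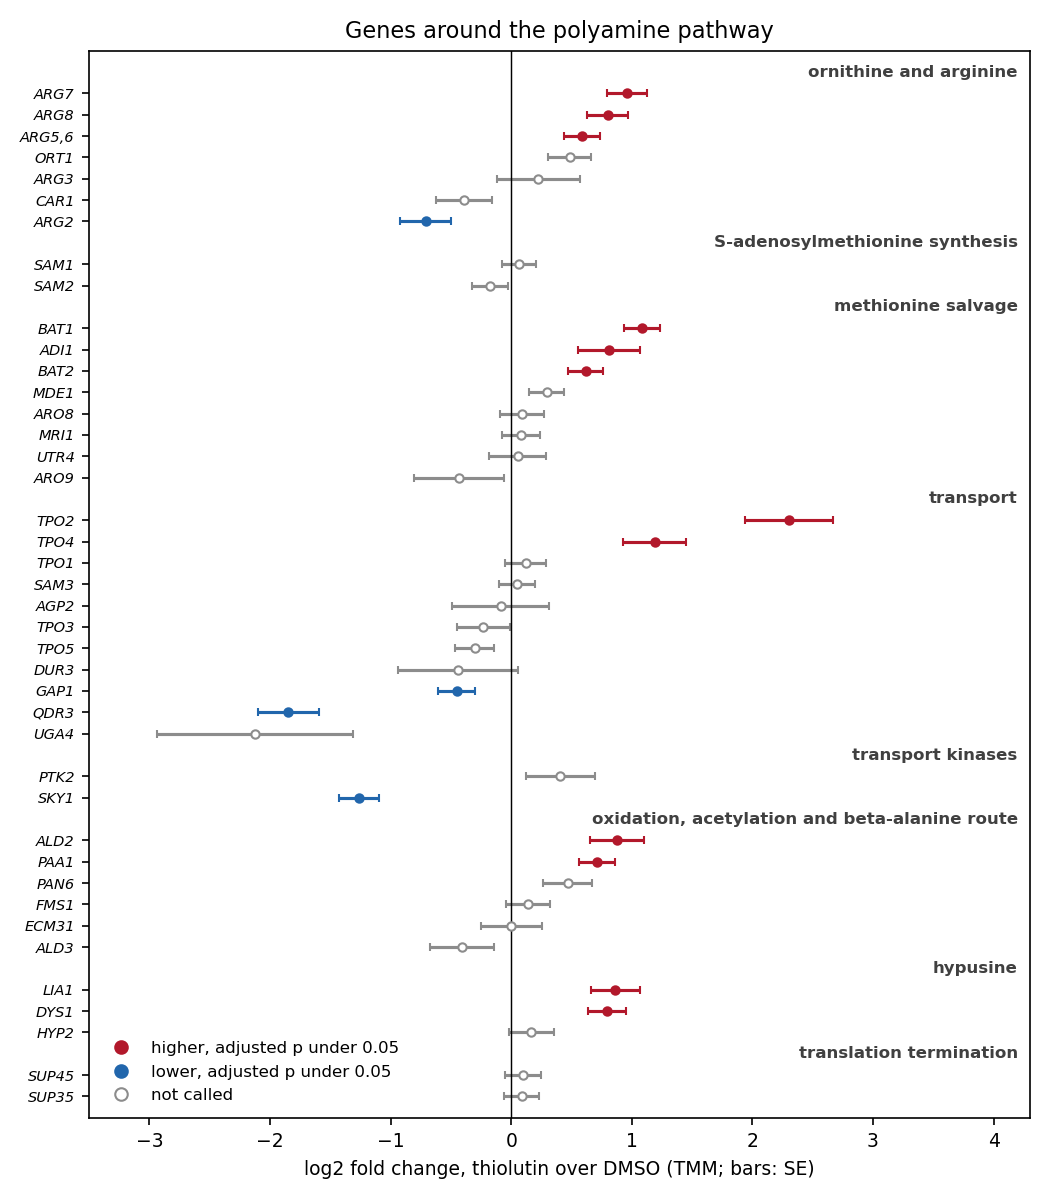
Log2 fold change of thiolutin over DMSO (TMM) with standard errors for the 41 tested genes around the pathway, grouped by role. Red points (12) are higher and blue points (4) lower at an adjusted p under 0.05, and open points are not called. TPO2, whose reads were divided with TPO3, has the highest value of 2.30, and QDR3, at -1.85, has the lowest value of the called genes.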

How the data were processed

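The 6 genes, the list of 43 linked genes and the tests were chosen with earlier results of these data known. Single-end stranded reads were aligned by the authors (STAR 2.7.3a), who estimated expression in RSEM 1.3.1 and deposited for each library an expected count (estimated reads, not normalized, with multi-mapping reads divided) and a TPM value per gene, before any spike-in factor. Expected counts were rounded to whole numbers (ties up), filtered with filterByExpr, normalized by TMM and compared by the quasi-likelihood test in edgeR 4.0.16 (R 4.3.3), adjusted by Benjamini-Hochberg. Each standard error is the ratio of the log2 fold change to the root of F. Ratios used expected counts per effective length. DESeq2 1.42.0 served for alternatives. A pseudocount of 0.1 was used for log2 TPM. The edgeR fit was tested on simulated data in which most genes were unchanged. That did not test how it handles a fall shared by most genes.

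Named genes are the 6, in each linked list up to 3 called genes with the largest change, the 3 genes on each side of OAZ1 in the order of change and the 5 most like it. Uncalled linked genes with values were picked after these were seen. Of the gene identifiers, 6006 matched the R64 annotation, 5679 with the same length. With 2 libraries per group, edgeR estimates the spread of a gene between these samples partly from the other genes, and the p-values rest on that estimate. The labels do not say whether the samples came from separate cultures. Leaving out a library leaves a group of 1, which the fit assumes to vary like the other group. Spike-in reads, ChIP-seq and Hi-C were not used here.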

Additional observations from a re-analysis of the deposited data

How the results depend on the processing

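The 9 expected counts of OAZ1 in thiolutin replicate b are the main limit of depth, and the enzyme genes had 62 or more in every library. At the study's threshold of an adjusted p of 1e-05, 44 genes were higher and 11 lower with edgeR's quasi-likelihood test, and of the linked genes 0 and 0. Of the linked genes 14 and 5 had an unadjusted p under 0.05, and at 1e-05 the likelihood ratio test called 3 and 2 and DESeq2's Wald test 1 and 0. Genes higher and lower numbered 115 and 3644 with library totals, 89 and 2678 with RDN58, and 100.0 and 4653 with RDN25 and RDN18. For linked genes these were 1 and 25, 1 and 13, and 1 and 34, with medians of -0.85, -0.76 and -1.12. The log2 fold changes of OAZ1, SPE1, SPE2, SPE3, SPE4 and MEU1 were -4.14, -1.34, -0.019, -0.54, -0.99 and -0.25 with library totals. With RDN58 they were -4.18, -1.26, 0.068, -0.49, -0.90 and -0.19, and with RDN25 and RDN18 -4.31, -1.61, -0.29, -0.79, -1.26 and -0.51. These scalings move all genes together. With at least 50 counts in every library, which removes OAZ1, 419 genes were higher and 468 lower, 4 linked genes were higher, and the linked median was -0.16. SPE1, SPE2, SPE3, SPE4 and MEU1 were there at -0.70, 0.62, 0.13, -0.35 and 0.41. DESeq2's Wald test called 563 genes lower, 2 of them linked. MEU1 was at 0.74 with that test and with DESeq2 size factors and at 0.70 without a filter. With 1 library left out, 368 to 1259 genes were higher and 442 to 1219 lower, and of the linked genes 5 to 13 and 2 to 4, with a median of 0.087 to 0.20. The log2 fold changes ranged from -3.79 to -2.85 for OAZ1, from -0.54 to -0.21 for SPE1, from 0.72 to 1.18 for SPE2, from -0.21 to 0.15 for SPE4 and from 0.70 to 0.71 for MEU1. On the TPM scale SPE2 ranged from -0.38 to 0.52 and MEU1 from -0.47 to 0.12, so that both changed sign. The cause of these moves was not tested. Nothing states that samples with the same replicate letter belong together, and across genes the deviation of a relative to b had a correlation of 0.0332 for thiolutin with DMSO. Under the replicate block the higher genes numbered 1069 and the lower genes 941, with 12 and 4 linked genes among them, and OAZ1 was at -3.17.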

Other observations

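In the R64 annotation, 47 protein-coding genes have coding segments that leave out exactly 1 base. Of these, 3 carry a gene name (OAZ1, EST3 and ABP140), and 44 do not. The first 3 unnamed genes by identifier that were tested, YBL005W-B, YBL100W-B and YCL019W, had log2 fold changes of 1.02, 1.59 and 1.42. All 3 were called higher (adjusted p = 0.00156, 1.20e-04 and 0.00461, edgeR). The other unnamed genes were not examined here. EST3 (YIL009C-A), a telomerase subunit gene, had normalized counts of 48.5 and 35.3 in thiolutin replicates a and b, against 86.6 and 71.0 in DMSO replicates a and b, a log2 fold change of -0.83 (adjusted p = 0.0308, edgeR). ABP140 (YOR239W), an actin-binding protein gene, had 126 and 171 in the thiolutin libraries, against 109 and 110 in the DMSO libraries, and was not called (log2 fold change 0.39, adjusted p = 0.15, edgeR). EST3, ABP140 and the unnamed genes were looked up after the value of OAZ1 was known. Over all genes tested 18.5% were called higher and 17.6% lower, and whether a skipped base goes with a lower level was not tested. The genes that flank OAZ1 on chromosome XVI were KTR6 and ARL3, the latter on the same strand 284 bases further on. KTR6 had a log2 fold change of -0.22 (adjusted p = 0.265, edgeR) and ARL3 -1.08 (adjusted p = 0.00608, edgeR). Beside enzyme genes, MED1 (next to SPE3) was at -1.48 (adjusted p = 4.52e-04, edgeR) and POM34 (next to MEU1) at -0.685 (adjusted p = 0.00741, edgeR). The other flanking genes that were tested were not called.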
